A study of Rattus norvegicus with 9 samples.

Results

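Genes of cholesterol synthesis and targets of the sterol regulatory element-binding proteins (SREBPs) were described in RNA of the renal outer medulla of 9 rats, all of the MCW SS strain, which is salt-sensitive. The members were taken from a list of 26 gene names by exact match, ignoring case, to the gene name in the deposited table of 30315 loci. Of the 26 names, 24 were found, each at 1 locus, and all 24 reached the mean of 1 FPKM over the 9 libraries that testing required. FPKM is the number of fragments scaled to transcript length and to all mapped fragments. Acat2 appears in a locus with a joint name and Cyp51 under the symbol CYP51A1, a RefSeq synonym, so these are given beside the 24 and not counted among them.

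Each of the 3 groups held 3 rats, with 1 library per rat. The HS_DT rats received GapmeRs, antisense oligonucleotides that direct the cleavage of a target RNA, against Dnmt3a and Tet3 at 2 mg/kg each into the kidney, and ate a 4% NaCl diet for 7 days (the label gives this 7 without a unit). The HS_SCR rats received a scrambled GapmeR at 4 mg/kg by the same route, with the same diet and duration. The rats labelled 0.4% salt underwent the same surgery and gave their tissue just before GapmeR and high-salt diet would start. A difference of either high-salt group from 0.4% salt therefore takes in the diet, a GapmeR and the 7 days together.

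Cells make cholesterol from acetyl-CoA, first through mevalonate to farnesyl diphosphate, and then through squalene and lanosterol to cholesterol. The enzymes are largely controlled by SREBP-2, encoded by Srebf2, while SREBP-1, encoded by Srebf1, acts more on fatty acid synthesis. When sterols are low in the endoplasmic reticulum, Scap carries the SREBP precursor to the Golgi, where proteases release its active part. When sterols are high, the Insig proteins hold Scap back. The outer medulla is built mainly of thick ascending limbs, the last part of the proximal tubule and collecting ducts, and its measured RNA is a mixture of these and of other cells.

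The promoters of these genes are known from other studies to combine a sterol regulatory element with sites for the cofactors NF-Y, which binds CCAAT, and Sp1, which binds GC boxes. RefSeq promoter windows of build GRCr8 were available for 21 of the 26 names, and the 250 bases before the start were searched on both strands. The sequences of 3 members follow, 5′ to 3′ on the strand of the gene. Sc5d is shown since it fell in HS_SCR, Hmgcs1 since it had the largest difference between HS_DT and HS_SCR, and Insig1 since it holds all 3 motifs searched. Capitals mark the NF-Y motif CCAAT, the GC box GGGCGG and the sterol motif CACNCCAC, where N is any base, or their reverse complements.
Sc5d, GRCr8 chr8:51538278-51538527, minus strand: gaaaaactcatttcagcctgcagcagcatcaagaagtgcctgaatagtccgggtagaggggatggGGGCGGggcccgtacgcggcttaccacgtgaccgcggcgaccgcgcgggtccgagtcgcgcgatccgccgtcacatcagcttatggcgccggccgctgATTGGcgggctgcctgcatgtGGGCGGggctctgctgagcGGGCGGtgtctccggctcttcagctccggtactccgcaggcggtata
Hmgcs1, GRCr8 chr2:53382054-53382303, plus strand: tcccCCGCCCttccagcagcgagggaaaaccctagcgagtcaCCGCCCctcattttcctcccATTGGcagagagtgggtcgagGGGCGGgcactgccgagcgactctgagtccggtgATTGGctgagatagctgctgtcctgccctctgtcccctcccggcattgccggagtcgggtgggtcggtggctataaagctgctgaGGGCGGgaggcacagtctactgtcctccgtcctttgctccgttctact
Insig1, GRCr8 chr4:8057770-8058019, minus strand: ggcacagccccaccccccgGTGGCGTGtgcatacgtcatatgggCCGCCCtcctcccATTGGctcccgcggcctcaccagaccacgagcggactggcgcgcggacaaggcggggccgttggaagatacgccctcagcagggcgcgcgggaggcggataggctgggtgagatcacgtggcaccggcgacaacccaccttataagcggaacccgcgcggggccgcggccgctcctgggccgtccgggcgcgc
CCAAT occurred in 16 of the 21 genes (76.2%), against 34.0% of all 33469 promoter windows and 34.8% of the 9858 windows of tested genes. GGGCGG occurred in 17 of the 21 (81.0%), against 30.5% of all windows and 57.2% of those of tested genes. CACNCCAC, the core of the classical sterol element with any base at the fourth place, occurred in 3 of the 21 (14.3%), namely Acat2, Ebp and Insig1, against 4.89% of all windows and 4.88% of those of tested genes. No base of the 3 sequences shown lay in 2 motifs. In Hmgcs1, CCAAT lay on the opposite strand at 188 to 184 and 133 to 129 bases before the start, and in Sc5d on the opposite strand at 87 to 83 bases. These are matches of letters, and binding was not measured.

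The number of fragments per library is unknown. The relative depth, estimated from the most common ratio between very low values with 0.4% salt replicate 1 set to 1, ran from 0.760 to 1.37. Markers of the labelled zone were high, with Slc12a1, the salt cotransporter of the thick ascending limb, at 549.8 to 614 FPKM in HS_DT, 451 to 482 FPKM in HS_SCR and 739.8 to 975 FPKM in 0.4% salt. Neither target was lower in HS_DT than in HS_SCR libraries. Dnmt3a averaged 9.999 ± 1.17 FPKM in HS_DT, 7.70 ± 2.33 in HS_SCR and 12.8 ± 0.624 in 0.4% salt (SD, n = 3 each), and Tet3 averaged 8.03 ± 0.465 FPKM in HS_DT, 6.24 ± 1.71 in HS_SCR and 9.16 ± 0.612 in 0.4% salt. With limma the HS_DT minus HS_SCR adjusted p was 0.303 for Dnmt3a and 0.271 for Tet3. The rat numbers fall into a lower and a higher series, with 2 of 3 rats of each high-salt group in the lower and all 3 rats of 0.4% salt in the higher series.

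In 0.4% salt, the members spanned a range of levels from 3.59 ± 0.474 FPKM for Hsd17b7 to 62.7 ± 8.08 FPKM for Scd (SD, n = 3). The next highest were Fdps at 53.4 ± 7.01 FPKM, Ebp at 36.2 ± 3.31 FPKM and Msmo1 at 35.5 ± 9.61 FPKM, and Ebp and Msmo1 differed by less than their spread. The 16 enzymes of cholesterol synthesis together summed to 392, 313 and 350 FPKM in HS_DT, 341, 263 and 254 FPKM in HS_SCR, and 360, 312 and 281 FPKM in 0.4% salt. HS_SCR held the 2 lowest sums, and its replicate 1 lay among the values of the other groups. Of the 24 members, 19 had their lowest group mean in HS_SCR (79.2%, against 38.2% of all 14338 loci tested). HS_DT had the lowest mean in 3 members and 0.4% salt in 2.

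Against 0.4% salt, HS_SCR held less RNA of the sterol enzymes Fdft1 and Sc5d and of the SREBP targets Stard4 and Fasn, and more RNA of the early enzyme Pmvk. Of the 24 members, these 4 fell, this 1 rose and 19 did not pass by limma at an adjusted p of 0.05. Among all loci tested, 4.88% fell and 8.2% rose, so 4 of 24 is a larger share than among all loci. That share rests on 4 genes, and the members were chosen with earlier results of these data known. The mean was lower in 20 of 24 members, with a median log2 change of -0.29, against a median of 0.018 over all loci, of which 52.2% were higher. FPKM ranges of the groups did not overlap in 7 members that were lower and 1 that was higher, against 14.5% and 19.1% of all loci. Without 0.4% salt replicate 1 or 0.4% salt replicate 2, no member was called lower, and without HS_SCR replicate 2, 1 was. Without HS_SCR replicates 1 and 3, each left out alone, 8 and 6 were (against 4.01% and 15.7% of all loci). Over all loci, leaving out 1 library at a time gave 89 to 2253 called lower, against 699 with all libraries. Calls were thus also lost outside the members. Shares of all loci without 0.4% salt replicate 1, 0.4% salt replicate 2 or HS_SCR replicate 2 are not given here. Whether the loss was particular to the members was not tested. Where HS_SCR replicate 3 is left out, the HS_SCR and 0.4% salt rats share no number series, and series and group cannot be told apart. In whole tissue, fewer cells of a type and less RNA per cell cannot be told apart.

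Between HS_DT and HS_SCR, no member passed in either direction by limma, and the smallest adjusted p was 0.0644, for Stard4. Among all loci tested, 0% rose and 0.00697% fell, which is 1 locus. At an unadjusted p under 0.05, 10 members were higher and 1 lower in HS_DT, and 2732 of all 14338 loci were on either side. The mean was higher in HS_DT in 19 of 24 members, with a median log2 difference of 0.34, against -0.0019 over all loci. FPKM ranges did not overlap in 9 members that were higher in HS_DT and 1 that was lower, against 9.1% and 12.5% of all loci. Without HS_SCR replicate 3, 7 members were called higher (Hmgcs1, Lss, Hsd17b7, Sc5d, Stard4, Fasn and Scd) and 1 lower (Pmvk), against 6.75% and 9.29% of all loci in that fit. Without HS_SCR replicate 1, 2 were called higher (Sqle and Hsd17b7) and Pmvk lower, against 0.488% and 0.767% of all loci. Within the lower rat number series, with 2 libraries a group, the median difference was 0.42 and none passed.

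No difference between HS_DT and 0.4% salt was called among the members. Of the 24, none passed in either direction by limma, and of all loci 0% rose and 0% fell. At an unadjusted p under 0.05, 1 member (Pmvk, higher) and 1074 of all loci passed. The median log2 change of the members was 0.041, with 14 means higher and 10 lower, and the values ran from -0.30 for Scd to 0.58 for Hmgcs1. FPKM ranges did not overlap in 1 member that was higher (Pmvk) and 1 that was lower (Scd), against 14.2% and 9.64% of all loci. HS_DT and HS_SCR are each set against the same 3 libraries of 0.4% salt, and HS_SCR enters the other comparisons, so the 3 sets of values are not independent. By the F test over the 3 groups, Pmvk, Stard4 and Sc5d passed (limma adjusted p = 0.0206, 0.0248 and 0.0368), against 5.61% of all loci.

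**Figure D1:**
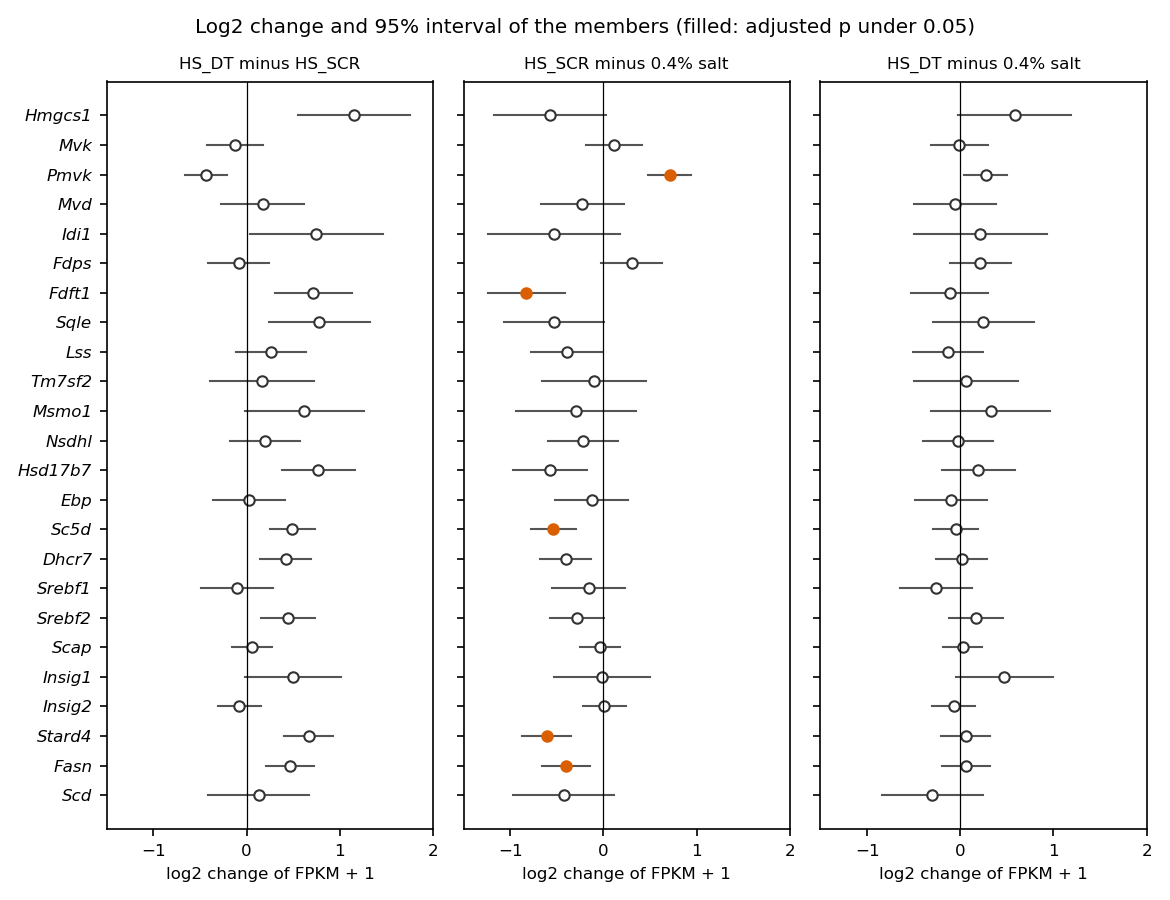
Log2 change of FPKM + 1 (horizontal axis) of the 24 members (rows) in the 3 comparisons, with 95% intervals from limma; filled points passed at an adjusted p of 0.05. In HS_SCR minus 0.4% salt 5 points are filled, with Pmvk on the right and Fdft1, Sc5d, Stard4 and Fasn on the left, and no point is filled in the other comparisons.

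The early steps, from acetyl-CoA to farnesyl diphosphate, were not uniform. Of their 6 members, 3 were higher and 3 lower in HS_DT than in HS_SCR, and the same split held for HS_SCR against 0.4% salt. Hmgcs1, the cytosolic synthase that forms HMG-CoA (rn5 chromosome 2, 70791045 to 70809197), stood at 49.7, 28.7 and 36.6 FPKM in HS_DT, 21.2, 11.5 and 17.6 FPKM in HS_SCR, and 31.6, 22.04 and 21.4 FPKM in 0.4% salt. All 3 HS_DT libraries lay above all 3 of HS_SCR, and HS_SCR lay below 0.4% salt, with a narrow gap at 21.2 against 21.4 FPKM. The difference of HS_DT from HS_SCR was the largest of the 24 on the log2 scale (1.15 ± 0.26 SE, 95% interval 0.55 to 1.75, limma adjusted p = 0.0833), which did not pass. HS_SCR against 0.4% salt stood at -0.57 ± 0.26 (limma adjusted p = 0.174), and HS_DT against 0.4% salt at 0.58 ± 0.26 (limma adjusted p = 0.674).

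Pmvk, phosphomevalonate kinase (rn5 chromosome 2, 208198107 to 208207798), went the other way. It stood at 23.8, 22.7 and 23.2 FPKM in HS_DT, 27.6, 33.5 and 34.6 FPKM in HS_SCR, and 20.8, 18.4 and 18.03 FPKM in 0.4% salt. The 3 groups did not overlap, with HS_SCR highest, HS_DT between and 0.4% salt lowest. Pmvk rose in HS_SCR against 0.4% salt (log2 change 0.71 ± 0.10 SE, limma adjusted p = 0.00723), a call that also held without each of the 9 libraries in turn, with adjusted p from 0.00343 to 0.0406. It ended with a proximal tubule score in the fit (adjusted p = 0.15) and when the 2 libraries with most of those markers were left out (0.0734). In HS_DT it was lower than in HS_SCR by a value that did not pass (-0.44 ± 0.10, limma adjusted p = 0.084), and it stood at 0.27 ± 0.10 against 0.4% salt (limma adjusted p = 0.565).

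Idi1, the isomerase of isopentenyl diphosphate, stood at 20.9, 13.7 and 19.8 FPKM in HS_DT, 17.5, 8.24 and 7.27 FPKM in HS_SCR, and 19.9, 13.7 and 12.9 FPKM in 0.4% salt. HS_SCR replicate 1 lay inside the range of both other groups, and HS_SCR replicates 2 and 3 lay below all other libraries. It did not pass in any comparison (0.75 ± 0.31 in HS_DT against HS_SCR, limma adjusted p = 0.242). Mvk, mevalonate kinase, averaged 6.93 ± 0.411 FPKM in HS_DT, 7.72 ± 1.47 in HS_SCR and 6.98 ± 0.538 in 0.4% salt (SD, n = 3 each). Mvd, the decarboxylase that yields isopentenyl diphosphate, averaged 7.51 ± 0.378 FPKM in HS_DT, 6.78 ± 2.24 in HS_SCR and 7.86 ± 0.825 in 0.4% salt. Fdps, farnesyl diphosphate synthase, averaged 62.03 ± 6.85 FPKM in HS_DT, 66.2 ± 10.7 in HS_SCR and 53.4 ± 7.01 in 0.4% salt. For Mvk, Mvd and Fdps the groups overlapped in all 3 comparisons, and the intervals of the HS_DT minus HS_SCR difference were -0.43 to 0.18, -0.27 to 0.61 and -0.41 to 0.24 on the log2 scale.

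The steps from squalene onward had their means on 1 side. All 10 members had a lower mean in HS_SCR than in 0.4% salt and a higher mean in HS_DT than in HS_SCR, with median log2 changes of -0.40 and 0.45 in these comparisons, which share the HS_SCR libraries. Over all loci, 52.2% had a higher mean in HS_SCR than in 0.4% salt, and 49.7% in HS_DT than in HS_SCR. By limma, 2 of the 10 fell in HS_SCR, against 4.88% of all loci. None of the 10 was called in HS_DT against HS_SCR, where 0% of all loci rose. Fdft1, squalene synthase (rn5 chromosome 15, 50103181 to 50132112), commits farnesyl diphosphate to sterols and stood at 31.5, 25.995 and 38.2 FPKM in HS_DT, 20.02, 19.4 and 17.1 FPKM in HS_SCR, and 32.7, 43.5 and 27.9 FPKM in 0.4% salt. Every HS_SCR library lay below every other library. Fdft1 fell in HS_SCR against 0.4% salt (log2 change -0.83 ± 0.18 SE, limma adjusted p = 0.0237). The call ended without 0.4% salt replicate 1, 0.4% salt replicate 2 or HS_SCR replicate 2 (limma adjusted p = 0.0742, 0.0801 and 0.0596). It also ended in a fit of the 2 groups alone (adjusted p = 0.0543) and with the series of rat numbers in the fit (log2 change -0.76, adjusted p = 0.0789). HS_DT against HS_SCR stood at 0.72 ± 0.18 (limma adjusted p = 0.0986).

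Sc5d, the sterol C5-desaturase whose promoter is printed above (rn5 chromosome 8, 44998824 to 45010586), stood at 20.1, 17.6 and 22.2 FPKM in HS_DT, 14.4, 12.95 and 14.3 FPKM in HS_SCR, and 21.8, 21.5 and 18.6 FPKM in 0.4% salt. The HS_SCR values lay close together and below all 6 others. Sc5d fell in HS_SCR against 0.4% salt (log2 change -0.54 ± 0.11 SE, limma adjusted p = 0.017). The call ended without 0.4% salt replicate 1, 0.4% salt replicate 2 or HS_SCR replicate 2 (limma adjusted p = 0.0739, 0.0776 and 0.0544). It also ended with the series of rat numbers in the fit (log2 change -0.44, adjusted p = 0.0559). The difference of HS_DT from HS_SCR was 0.49 ± 0.11 (limma adjusted p = 0.0787), and it passed with the series of rat numbers in the fit (0.0468) and without HS_SCR replicate 3 (0.0277). HS_DT and 0.4% salt overlapped at -0.049 ± 0.11 (95% interval -0.29 to 0.19).

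Sqle, squalene epoxidase, an oxygen-dependent and rate-limiting step, stood at 18.8, 14.1 and 15.3 FPKM in HS_DT, 13.2, 7.07 and 7.39 FPKM in HS_SCR, and 16.9, 12.3 and 11.2 FPKM in 0.4% salt. HS_DT lay above HS_SCR in every library, and HS_SCR replicate 1 lay among the 0.4% salt values. Hsd17b7, a sterol ketoreductase, had the lowest level of the members and stood at 5.11, 3.45 and 4.28 FPKM in HS_DT, 2.81, 1.83 and 1.69 FPKM in HS_SCR, and 4.14, 3.33 and 3.30 FPKM in 0.4% salt. Its HS_SCR values lay below those of both other groups, at log2 changes of -0.57 ± 0.17 against 0.4% salt (limma adjusted p = 0.061) and 0.77 ± 0.17 for HS_DT against HS_SCR (limma adjusted p = 0.0797). Dhcr7, the reductase of the last step, showed the same order, at 8.70, 7.93 and 8.35 FPKM in HS_DT, 6.85, 5.69 and 5.45 FPKM in HS_SCR, and 8.13, 9.54 and 7.17 FPKM in 0.4% salt (HS_SCR against 0.4% salt -0.40 ± 0.12, limma adjusted p = 0.0585). In the model without added terms or rescaling, none of these 3 passed in any comparison with all 9 libraries. In HS_SCR against 0.4% salt, Sqle and Hsd17b7 were called lower with the replicate block, and Dhcr7 under median-ratio rescaling.

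The other 5 members of this arm overlapped between groups in all 3 comparisons. Msmo1, the methylsterol monooxygenase, stood at 50.6, 40.4 and 41.2 FPKM in HS_DT, 44.9, 22.4 and 22.1 FPKM in HS_SCR, and 46.5, 31.3 and 28.7 FPKM in 0.4% salt, with HS_SCR replicate 1 above most libraries and replicates 2 and 3 lowest of all. Lss, which closes the sterol ring, averaged 8.64 ± 0.78 FPKM in HS_DT, 7.16 ± 1.96 in HS_SCR and 9.58 ± 1.103 in 0.4% salt (SD, n = 3 each), with HS_SCR replicate 3 at 9.39 FPKM and the other HS_SCR libraries at 6.34 and 5.75 FPKM. Tm7sf2, a sterol C14-reductase, averaged 13.5 ± 3.91 FPKM in HS_DT, 12.01 ± 4.08 in HS_SCR and 12.6 ± 1.88 in 0.4% salt. Nsdhl, which removes methyl groups at carbon 4 together with Msmo1 and Hsd17b7, averaged 14.9 ± 0.872 FPKM in HS_DT, 13.1 ± 3.14 in HS_SCR and 15.2 ± 1.79 in 0.4% salt. Ebp, the sterol isomerase, averaged 33.8 ± 5.03 FPKM in HS_DT, 33.5 ± 6.96 in HS_SCR and 36.2 ± 3.31 in 0.4% salt, and its HS_DT minus HS_SCR interval was -0.36 to 0.41. CYP51A1, the lanosterol demethylase listed as Cyp51, stood at 40.6, 30.6 and 34.6 FPKM in HS_DT, 41.5, 22.7 and 19.4 FPKM in HS_SCR, and 36.6, 25.8 and 24.6 FPKM in 0.4% salt, with the same order of HS_SCR libraries as Msmo1. The joint locus that holds Acat2, an acetyl-CoA acetyltransferase of the first step, stood at 10.7, 7.94 and 8.67 FPKM in HS_DT, 10.4, 4.54 and 5.84 FPKM in HS_SCR, and 7.72, 6.97 and 6.91 FPKM in 0.4% salt.

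**Figure D2:**
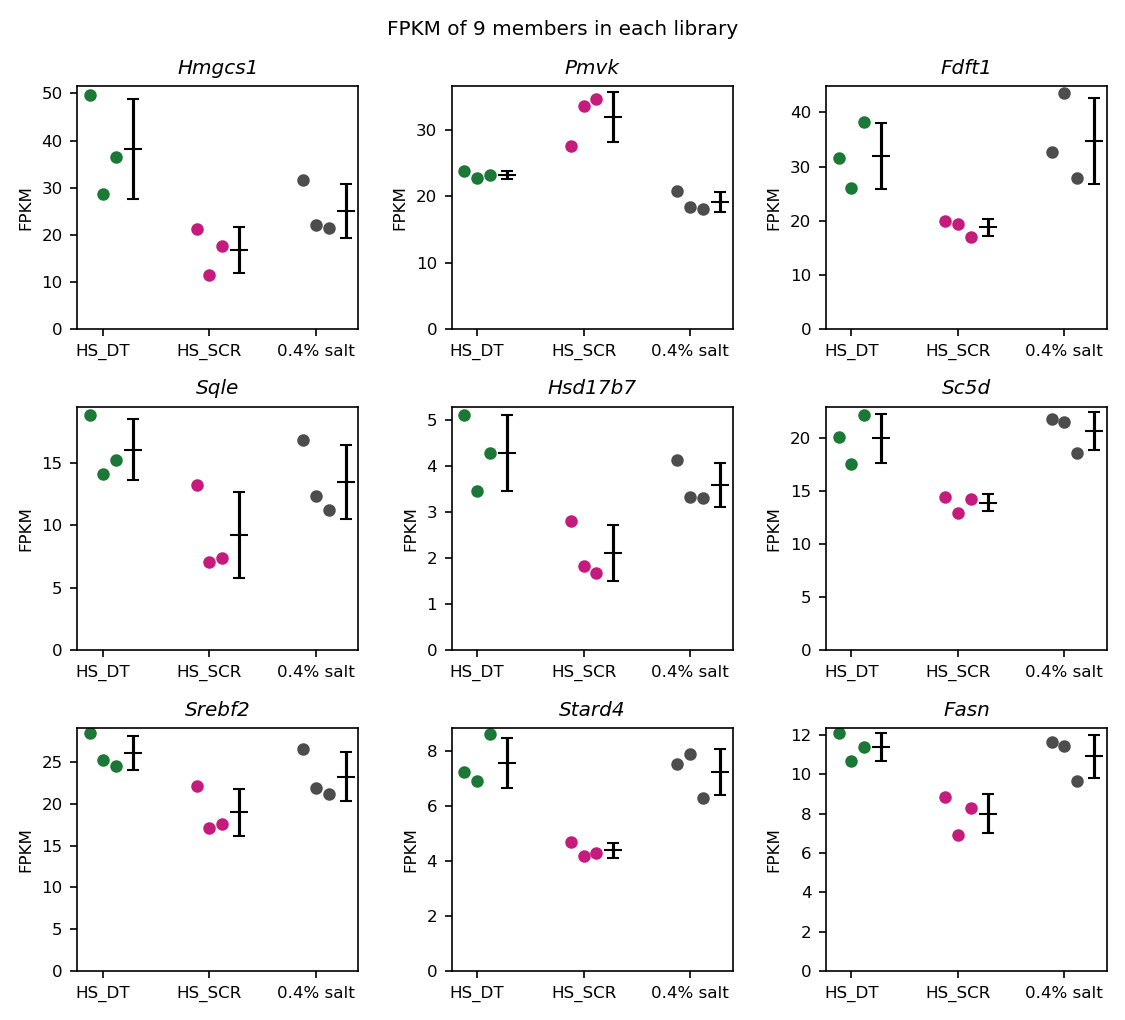
FPKM (vertical axis) of 9 members in each library by group (horizontal axis); points are libraries and black bars the mean ± SD of 3. HS_SCR lies below HS_DT in every library for 8 of the panels, and above it for Pmvk. All 9 are members whose ranges did not overlap between HS_DT and HS_SCR, so the separation follows from the choice. In 14 of the 24 members these ranges overlapped.

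None of the 5 SREBP factors and regulators passed in any comparison by limma. Srebf2 (rn5 chromosome 7, 123364494 to 123422294) stood at 28.5, 25.2 and 24.6 FPKM in HS_DT, 22.2, 17.1 and 17.6 FPKM in HS_SCR, and 26.6, 21.9 and 21.2 FPKM in 0.4% salt. HS_DT lay above HS_SCR in every library, by a log2 difference of 0.45 ± 0.13 (limma adjusted p = 0.125) that did not pass, and HS_SCR replicate 1 overlapped 0.4% salt (-0.28 ± 0.13, limma adjusted p = 0.165). Srebf1 stood at 6.8004, 6.12 and 6.37 FPKM in HS_DT, 5.89, 6.05 and 9.42 FPKM in HS_SCR, and 8.81, 8.43 and 6.62 FPKM in 0.4% salt, with HS_SCR replicate 3 the highest of the 9 and the other 2 HS_SCR libraries the lowest, so that no order of groups appeared. Scap, the SREBP escort, averaged 21.1 ± 0.857 FPKM in HS_DT, 20.2 ± 2.05 in HS_SCR and 20.7 ± 1.46 in 0.4% salt (SD, n = 3 each), with 95% intervals of -0.15 to 0.27 for HS_DT minus HS_SCR and -0.25 to 0.18 for HS_SCR minus 0.4% salt. The protein products and the processing of SREBPs were not measured.

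Insig1, itself an SREBP target and a brake on Scap, stood at 41.01, 28.2 and 34.05 FPKM in HS_DT, 26.1, 18.1 and 28.8 FPKM in HS_SCR, and 31.6, 23.2 and 19.3 FPKM in 0.4% salt. The groups overlapped in all comparisons, and HS_DT against HS_SCR stood at 0.49 ± 0.23 (limma adjusted p = 0.281). Insig2, which has the same function and is not a strong SREBP target, averaged 14.1 ± 0.876 FPKM in HS_DT, 14.999 ± 1.47 in HS_SCR and 14.9 ± 1.31 in 0.4% salt (SD, n = 3 each). Its HS_DT minus HS_SCR interval was -0.31 to 0.15, against -0.023 to 1.01 for Insig1. Whether these 2 genes differ in response was not tested.

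Stard4 carries cholesterol between membranes and is a known SREBP-2 target (rn5 chromosome 18, 25696762 to 25712323). It stood at 7.23, 6.90 and 8.62 FPKM in HS_DT, 4.70, 4.17 and 4.29 FPKM in HS_SCR, and 7.52, 7.90 and 6.29 FPKM in 0.4% salt. The 3 HS_SCR libraries lay close together and below all others. Stard4 fell in HS_SCR against 0.4% salt (log2 change -0.61 ± 0.11 SE, limma adjusted p = 0.0152), and that call ended without 0.4% salt replicate 1 (limma adjusted p = 0.0651) or 0.4% salt replicate 2 (0.0698) and in a fit of the 2 groups alone (adjusted p = 0.0517). Its difference of HS_DT from HS_SCR was 0.67 ± 0.11 (95% interval 0.40 to 0.93, limma adjusted p = 0.0644), and it passed at a minimum mean of 5 FPKM (adjusted p = 0.0478), with the series of rat numbers in the fit (0.041) and without HS_SCR replicate 3 (0.0182). HS_DT and 0.4% salt overlapped, at 0.059 ± 0.11.

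Fasn, fatty acid synthase and an SREBP-1 target (rn5 chromosome 10, 109579048 to 109597219), stood at 12.1, 10.7 and 11.4 FPKM in HS_DT, 8.85, 6.90 and 8.27 FPKM in HS_SCR, and 11.7, 11.4 and 9.66 FPKM in 0.4% salt. HS_SCR lay below both other groups in every library. Fasn fell against 0.4% salt by a value just past the threshold (log2 change -0.41 ± 0.11 SE, limma adjusted p = 0.0488), and 7 of the 9 fits that left out a library lost the call, all but those without HS_SCR replicate 1 or 3. It also ended with the replicate block (adjusted p = 0.0528), with no filter on low values (0.0726), under quantile normalization (0.0693), in a fit of the 2 groups alone (0.117) and with the series of rat numbers in the fit (0.129). HS_DT against HS_SCR stood at 0.46 ± 0.11 (limma adjusted p = 0.0944). Scd, a stearoyl-CoA desaturase, stood at 54.3, 46.2 and 51.4 FPKM in HS_DT, 39.2, 35.01 and 71.3 FPKM in HS_SCR, and 71.5, 61.2 and 55.5 FPKM in 0.4% salt. Its HS_SCR libraries lay at both ends, with replicate 3 near the top and replicates 1 and 2 lowest of all, and it did not pass in any comparison with all 9 libraries.

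The spread within HS_SCR was wide. The coefficient of variation had a median over the 24 members of 10.03% in HS_DT, 21.9% in HS_SCR and 12.8% in 0.4% salt. Over all loci it was 8.99% in HS_DT, 18.02% in HS_SCR and 8.28% in 0.4% salt. Relative to the mean of the 9 libraries on the log2 scale, the median member stood at 0.18, 0.026 and 0.13 in HS_DT. In HS_SCR it stood at -0.033, -0.45 and -0.31, and in 0.4% salt at 0.24, 0.027 and -0.078. Of the 24 members, 11 had their lowest library in HS_SCR replicate 2 and 9 in HS_SCR replicate 3, and 9 had their highest in HS_DT replicate 1. In each group replicate 1 was the highest library for most members, with 16 in HS_DT (36.9% of all loci), 16 in HS_SCR (34.8% of all loci) and 19 in 0.4% salt (31.7% of all loci).

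**Figure D3:**
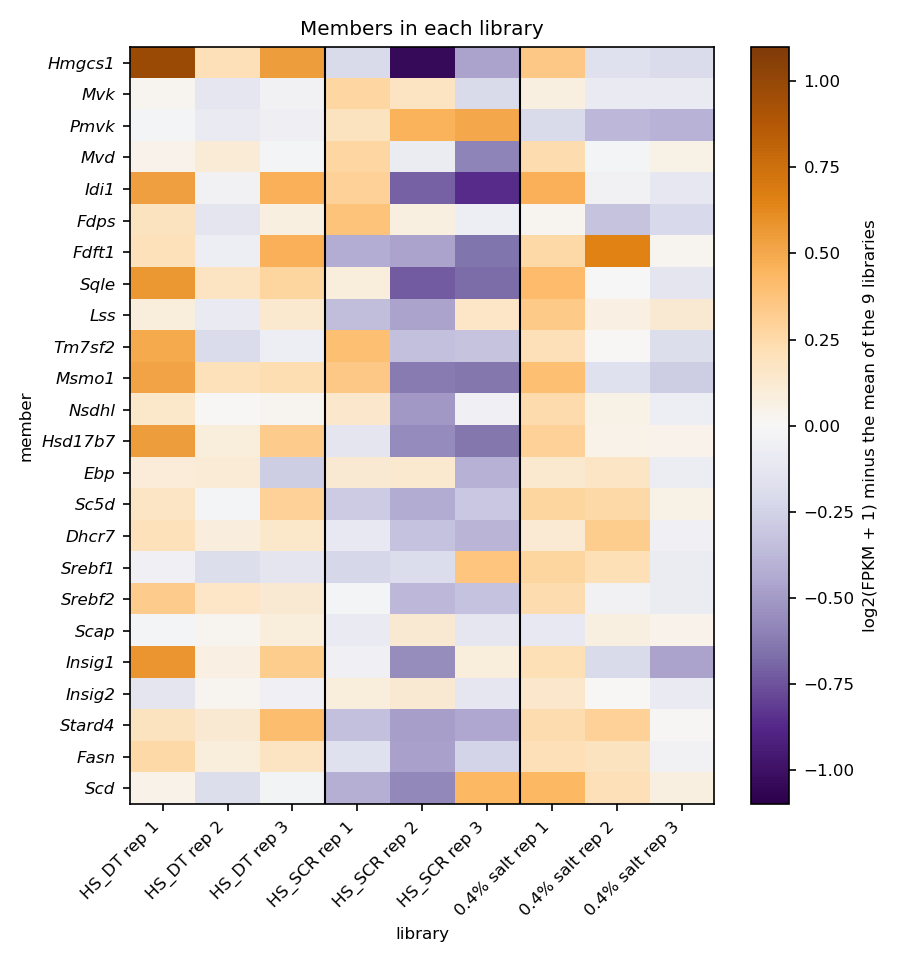
Deviation of log2(FPKM + 1) of each of the 24 members (rows) from its mean over the 9 libraries (columns, by group); orange is above and purple below the mean. HS_SCR replicates 2 and 3 are purple for most sterol enzymes, HS_SCR replicate 1 shows both colours, and Pmvk is orange in all 3 HS_SCR libraries.

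Other genes of the pathway were taken from lists by function, whose counts in HS_SCR against 0.4% salt stand against 8.2% of all loci that rose and 4.88% that fell. These lists, too, were chosen with earlier results of these data known. Of 18 tested genes among other SREBP targets and fatty acid synthesis, 5 fell in HS_SCR against 0.4% salt, none rose, 13 did not pass and the median log2 change was -0.20. The largest falls were of Acss2, which makes acetyl-CoA from acetate (-1.42 ± 0.33), the elongase Elovl6 (-0.84 ± 0.17), the acetyl-CoA carboxylase Acacb (-0.79 ± 0.19) and malic enzyme Me1 (-0.52 ± 0.12), with limma adjusted p of 0.0285, 0.0191, 0.0298 and 0.0312. Acss2 stood at 21.2, 36.1 and 19.7 FPKM in HS_SCR, and 55.1, 107 and 53.5 FPKM in 0.4% salt. Its highest library, 0.4% salt replicate 2, also had the highest summed FPKM of proximal tubule markers (6623). Whether these values are related was not tested. In HS_DT against HS_SCR none of the 18 passed, and the smallest p were those of Gpam (0.41 ± 0.10, limma adjusted p = 0.0882) and Elovl6 (0.65 ± 0.17, limma adjusted p = 0.111). Of 13 tested genes of SREBP activation and sterol-regulated degradation, 1 rose in HS_SCR against 0.4% salt, the ubiquitin ligase Rnf145 (0.37 ± 0.087, limma adjusted p = 0.0308), and 12 did not pass. That 1 of 13 is near the share of 8.2% among all loci.

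Of 19 tested genes of cholesterol uptake, trafficking and esterification, 1 rose in HS_SCR against 0.4% salt and 18 did not pass. Among all loci 8.2% rose, and a count of 1 gene does not tell the shares apart. The 1 was Npc2, which takes cholesterol out of lysosomes (0.61 ± 0.084, limma adjusted p = 0.007). Of 9 tested genes of LXR receptors and cholesterol efflux, 3 rose in HS_SCR against 0.4% salt and 6 did not pass. Apoe, a lipoprotein component made by macrophages among other cells, rose and stood at 555, 685 and 732 FPKM in HS_DT, 953, 1575 and 2353 FPKM in HS_SCR, and 379, 383 and 508 FPKM in 0.4% salt (log2 change 1.86 ± 0.30 SE, limma adjusted p = 0.00941), and Pltp (1.02 ± 0.20) and the receptor Nr1h2 (0.33 ± 0.091) rose with it. Of 6 tested genes of oxysterol and bile acid enzymes, Cyp39a1 fell (-0.49 ± 0.11, limma adjusted p = 0.0274). By limma, none of the lists had a called gene in HS_DT against HS_SCR or in HS_DT against 0.4% salt, where of all loci 1 and 0 were called.

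Where a list had no called gene, genes were named for having the smallest p in the list, whatever its size, and are given as values that did not pass. In HS_DT against HS_SCR these include Ufd1l, a cofactor in extracting proteins from the endoplasmic reticulum (-0.32 ± 0.083), Rnf145 (-0.31 ± 0.087), Npc2 (-0.43 ± 0.084), Apoe (-1.22 ± 0.30) and Mylip, a ubiquitin ligase induced by LXR (-0.75 ± 0.16). All 5 were lower in HS_DT than in HS_SCR. The peroxisomal enzymes Amacr (1.21 ± 0.52) and Acox2 (0.75 ± 0.37) had higher means in HS_DT, with overlapping groups. HS_DT replicate 3 stood far above the other HS_DT libraries, at 61.8 FPKM against 18.6 and 24.0 for Amacr. For Acox2 it stood at 7.00 FPKM against 2.72 and 3.11. The same library had the highest summed FPKM of proximal tubule markers in HS_DT (4435). The highest sum of all was in 0.4% salt replicate 2 (6623), with Amacr at 81.4 FPKM and Acox2 at 10.3 FPKM. Whether these values are related was not tested. In HS_DT against 0.4% salt, the values included Scarb1, a receptor for high-density lipoprotein (0.28 ± 0.12), Pltp (0.65 ± 0.20), Apoe (0.64 ± 0.30) and Cyp7b1, an oxysterol hydroxylase (0.36 ± 0.22), all higher. Me1 (-0.41 ± 0.12), Acacb (-0.35 ± 0.19), Erlin2 (-0.24 ± 0.11), Ggps1 (-0.18 ± 0.094) and Cyp39a1 (-0.34 ± 0.11) were lower in HS_DT, and Mbtps1, the protease that first cuts SREBPs, stood at 0.10 ± 0.093.

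Markers of several cell types differed between the same groups. The 19 proximal tubule markers in the table summed to 1281 to 4435 FPKM in HS_DT, 226 to 1958 FPKM in HS_SCR and 2850.5 to 6623 FPKM in 0.4% salt. Of the 18 tested, 6 fell in HS_SCR against 0.4% salt, none rose, and all 18 means were lower. The 12 thick ascending limb markers summed to 2574 to 3551 FPKM in HS_DT, 1281 to 3254 FPKM in HS_SCR and 2893 to 4533 FPKM in 0.4% salt, with 5 of 12 lower by test. The 11 macrophage and myeloid markers summed to 1020.3 to 1129 FPKM in HS_DT, 1292 to 1646 FPKM in HS_SCR and 629 to 779.95 FPKM in 0.4% salt, with 7 of 11 higher by test. The 6 erythroid markers summed to 1900.5 to 2601 FPKM in HS_DT, 1409.5 to 8797 FPKM in HS_SCR and 584 to 855 FPKM in 0.4% salt, with 4 of 5 tested higher. All these tests are HS_SCR against 0.4% salt, where 4.88% of all loci fell and 8.2% rose. In the same comparison, none of 10 collecting duct principal cell markers was called, and 9 of their means were higher. None of 7 tested intercalated cell markers and none of 7 fibroblast and pericyte markers was called. Of 9 endothelium markers 2 rose, as did 1 of 5 tested adipocyte markers. No marker of these lists was at 0 in all 9 libraries.

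Within HS_SCR, the proximal tubule markers and the sterol enzymes were as follows. HS_SCR replicate 1 had the lowest marker sum of all libraries, at 226 FPKM, with an enzyme sum of 341 FPKM. HS_SCR replicate 2 had a marker sum of 1958 FPKM and an enzyme sum of 263 FPKM. HS_SCR replicate 3 had the second lowest marker sum, at 313 FPKM, and the lowest enzyme sum, at 254 FPKM. With the proximal tubule score of the library as a covariate, none of the 24 members passed in any comparison, nor did any of the 14338 loci. In that fit the changes of the 4 members called lower in HS_SCR against 0.4% salt moved in both directions. Fdft1 stood at -0.45, against -0.83 without the score, Sc5d at -0.48 against -0.54, and Stard4 at -0.48 against -0.61. Fasn stood further from 0, at -0.55 against -0.41, as did Pmvk, at 0.76 against 0.71. Without the 2 libraries richest in these markers, no member or locus passed, with -0.66 for Fdft1, -0.51 for Sc5d, -0.55 for Stard4, -0.37 for Fasn and 0.69 for Pmvk. The part of the thick ascending limb, macrophage and erythroid markers in these results was not tested.

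**Figure D4:**
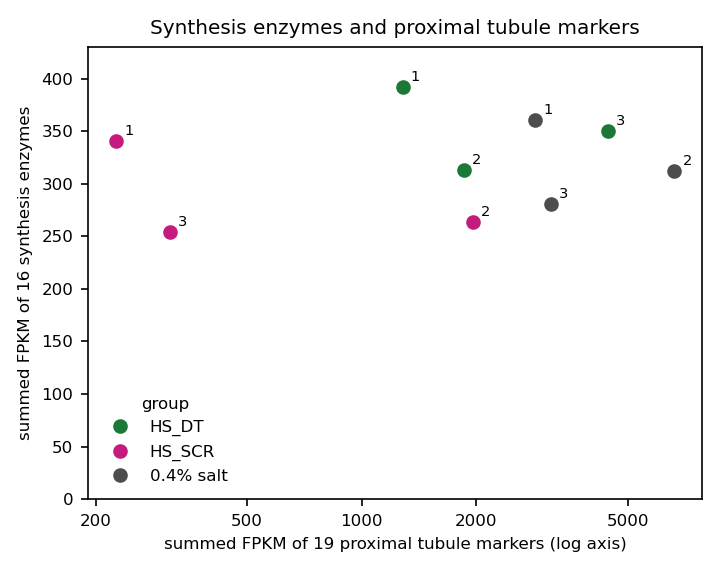
Summed FPKM of the 16 synthesis enzymes (vertical axis) against summed FPKM of 19 proximal tubule markers (horizontal log axis) in each library, numbered by replicate and coloured by group. HS_SCR replicates 1 and 3 have the lowest marker sums, at 226 and 313 FPKM, with enzyme sums of 341 and 254 FPKM.

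Several members carry limits of the table. For 7 of the 24 (Mvd, Sqle, Tm7sf2, Hsd17b7, Srebf1, Srebf2 and Scap) the table gives a span shared with another row, so the positions are not those of the gene alone and reads of neighbours may not be told apart. RefSeq names pseudogenes of 4 members, 5 of Fdps and 1 each of Idi1, Nsdhl and Scd, whose reads could be shared. The table places Nsdhl on chromosome 1 of rn5, while RefSeq lists it on chromosome X of GRCr8. The values of Fdps, Idi1, Nsdhl and Scd are therefore uncertain.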

How the data were processed

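RNA was measured in 9 libraries of outer medulla, each from a separate rat. The values are FPKM that the authors deposited for 30315 loci. The submitters' processing notes name Trim Galore 0.2.5, Cufflinks 2.2.1 and build rn5, while the sources used here give no aligner, annotation or scaling. Columns were matched through the rat number in each title, and 1 of the 10 value columns, a repeat of HS_DT replicate 3, was not used. Without read counts the depth is unknown, and counting intervals could not be computed.

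log2(FPKM + 1), a scale that understates changes of low genes, was tested where the 9 libraries averaged 1 FPKM or more (14338 loci). All 3 groups entered 1 limma-trend model (limma 3.58.1, R 4.3.3; two-sided; 6 residual degrees of freedom, 8.54 after moderation). Benjamini-Hochberg adjustment ran over all tested loci, at a threshold of 0.05. The model was tested on simulated data. Means carry the SD (n = 3) and log2 changes the SE.

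Replicate numbers carry no stated pairing, so the libraries were treated as unpaired. Same-numbered libraries of different groups had residual correlations over 0.1 in 5 of 9 pairs (-0.076 to 0.26). Those with different numbers ran from -0.31 to 0.24. These values do not settle whether the numbers share structure, and the replicate block was fitted as an alternative. All members are named. Of each pathway list, up to 4 called genes by size of change are named per comparison, or where none was called the 2 with the lowest p, leaving out genes whose 3 group means were all under 1 FPKM; some genes that this rule selects are not reported here. Members and lists were chosen with earlier results of these data known. Promoter windows are RefSeq's for GRCr8. Tables were made with Python 3.11.15 and pandas 2.3.3.

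Alternatives changed 1 choice at a time: a pseudocount of 0.1 FPKM; no filter, or a minimum mean of 5 FPKM; rescaling by median ratios; quantile normalization; fitting only the compared groups; adding the replicate block, the series of rat numbers or the proximal tubule score (the mean log2 value of those markers); and dropping each library. Leaving out the 2 libraries richest in proximal tubule markers, and keeping only the lower series of rat numbers, were added after seeing the data.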

Additional observations from a re-analysis of the deposited data

How the results depend on the processing

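With limma and all 9 libraries, 4 members were called lower and 1 higher in HS_SCR against 0.4% salt, and none in the other comparisons. The count of lower members was 1 in a fit of the 2 groups compared (Sc5d), 2 with the series of rat numbers as a term (Stard4 and, not among the 4, Ebp), and 0 with the proximal tubule score or without the 2 libraries richest in its markers. Under these last 2 settings the count of higher members was 0, and the F test over 3 groups gave 0 members in place of 3. The count of lower members was 5 under median-ratio rescaling (with Dhcr7), 3 under quantile normalization, 3 with no filter, and 4 with a pseudocount of 0.1 FPKM or a minimum mean of 5 FPKM. With the replicate block, whose numbers do not pair the rats, 6 members were lower (Hmgcs1, Sqle and Hsd17b7 added, Fasn lost) and 1 higher, and the F test gave 5. In HS_DT against HS_SCR, 1 member was called higher with the minimum mean of 5 FPKM (Stard4) and 2 with the series of rat numbers (Sc5d and Stard4). Leaving out 1 library at a time gave 0 to 7 members higher and 0 to 1 lower in HS_DT against HS_SCR, 0 to 8 lower in HS_SCR against 0.4% salt, and 0 to 6 by the F test. Over all loci, the same leave-outs gave 258 to 2935 higher and 89 to 2253 lower in HS_SCR against 0.4% salt (1175 and 699 with all 9), and 0 to 968 higher and 0 to 1332 lower in HS_DT against HS_SCR (0 and 1). The other settings gave 0 to 1177 higher and 0 to 790 lower loci in HS_SCR against 0.4% salt, and 0 to 126 higher and 0 to 296 lower in HS_DT against HS_SCR. For most single settings the count over all loci is not given here, and whether the member counts followed it was not tested. The cause of these shifts was not tested. Fits that leave libraries out also hold fewer libraries, and the part of that was not tested either.

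Direction turned only in values that were not called with all 9 libraries, given here on the log2 scale. In HS_DT minus HS_SCR these were Mvd -0.025, Ebp -0.030, Srebf1 0.10 and Scap -0.020 in the lower series only, and Fdps 0.028 and Scap -0.075 with the proximal tubule score. In HS_SCR minus 0.4% salt, the series of rat numbers gave Mvk -0.026, Srebf1 0.029, Insig1 0.11 and Insig2 -0.069, the proximal tubule score gave Scap 0.18, leaving out the libraries richest in its markers gave Scap 0.0028, and median-ratio rescaling gave Insig2 -0.022. In HS_DT minus 0.4% salt, the series gave Lss 0.10, Tm7sf2 -0.12, Nsdhl 0.0057, Sc5d 0.047, Dhcr7 -0.039 and Scd 0.021, the score gave Fdft1 0.030 and Tm7sf2 -0.12, and leaving out the richest libraries gave Ebp 0.070. Leaving out 1 library turned Mvd -0.056 to 0.37, Fdps -0.18 to 0.037, Tm7sf2 -0.048 to 0.41, Ebp -0.16 to 0.15, Srebf1 -0.21 to 0.090 and Scd -0.066 to 0.44 in HS_DT minus HS_SCR. It turned Mvd -0.43 to 0.0028, Tm7sf2 -0.34 to 0.030, Ebp -0.22 to 0.054, Scap -0.11 to 0.015, Insig1 -0.18 to 0.17 and Insig2 -0.047 to 0.086 in HS_SCR minus 0.4% salt. It turned Mvk -0.045 to 0.046, Mvd -0.11 to 0.020, Fdft1 -0.25 to 0.059, Tm7sf2 -0.15 to 0.20, Nsdhl -0.095 to 0.062, Ebp -0.18 to 0.024, Sc5d -0.13 to 0.035, Dhcr7 -0.074 to 0.11, Scap -0.032 to 0.061, Stard4 -0.027 to 0.12 and Fasn -0.021 to 0.10 in HS_DT minus 0.4% salt. Depth is unknown, so low values carry an error that could not be computed.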
